A study of Mus musculus with 2 samples.

Results

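Rab, Vps, Snx and Trappc genes encode much of the machinery that moves membrane between the organelles of a cell, and 137 protein-coding genes of the 4 families were followed here among 21938 nuclear protein-coding genes of the mouse. The members were taken by symbol from GENCODE M21, as Rab, Vps, Snx or Trappc followed by a number and an optional letter. Vps72 was left out, since it encodes a subunit of the SRCAP complex and not a trafficking protein. The families held 59 Rab, 33 Vps, 30 Snx and 15 Trappc genes.

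SRCAP is the ATPase of the remodelling complex that replaces histone H2A by the variant H2A.Z, and its fusion to the fluorescent protein YPet was mapped by CUT&Tag, in which an antibody, here against GFP, tethers the transposase Tn5 to the tagged protein. Both samples were SYAT cells, a line of CGR8 mouse embryonic stem cells with YPet and an auxin-inducible degron at the end of both Srcap alleles and with stable expression of the plant receptor OsTir1. All cells were in serum and LIF, with auxinole to prevent basal loss of SRCAP (200 nM per the labels, whereas the methods of the study give the dose in micromolar), so the 2 replicates formed 1 control group from 1 line, with 200000 cells and 10000 Drosophila nuclei as spike-in per sample. The study's reporting form describes its replicates in general as separately cultured and treated, and the labels give no culture for these 2.

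Rab proteins are small GTPases that switch between a GTP-bound form on a membrane and a GDP-bound form in the cytosol, and each marks a step of transport. Vps proteins, named for vacuolar protein sorting in yeast, build ESCRT, HOPS, CORVET, retromer and GARP, which sort cargo or tether membranes in the endosomal system. Sorting nexins bind phosphoinositides through a PX domain and shape or sort from endosomes. TRAPP complexes tether vesicles at the Golgi and act as exchange factors for Rab proteins.

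A gene counted as bound in a replicate if a peak shared at least 1 bp with the promoter window of any of its transcripts, which began 1000 bp before the transcription start site (TSS) and ended 500 bp after it. Each peak carries a score in the deposited list, read as 10 times the -log10 q-value, so a higher score is a stronger call within its own list. The lists held 6158 peaks in replicate 1 and 12958 in replicate 2, with median scores of 32 and 36. Read numbers are not in the lists, so depth was unknown, and a gene without a peak is only a gene at which none was called. With 1 group and 2 lists no test between conditions could be made, and none was made over genes, which are not replicates.

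The promoters of 3 members bound in both replicates are shown, each the highest-ranked of its family with an entry, to give the sequence at and beside the peaks, from RefSeq (GRCm38.p6), which had entries for 102 of the 137 members. Vps35 and Trappc4, which ranked above Vps8 and Trappc2l, had no entry. Each runs 5′ to 3′ from 250 bases before to 50 bases after a RefSeq start, with the letters CCAAT (read by NFY), AANATGGC (YY1) and GGGCGG (SP factors) in capitals on either strand. The Rab4b promoter is chr7:27178834-27179133 on the minus strand, that of Trappc2l is chr8:122611376-122611675 on the plus strand and that of Vps8 is chr16:21422868-21423167 on the plus strand.
Rab4b: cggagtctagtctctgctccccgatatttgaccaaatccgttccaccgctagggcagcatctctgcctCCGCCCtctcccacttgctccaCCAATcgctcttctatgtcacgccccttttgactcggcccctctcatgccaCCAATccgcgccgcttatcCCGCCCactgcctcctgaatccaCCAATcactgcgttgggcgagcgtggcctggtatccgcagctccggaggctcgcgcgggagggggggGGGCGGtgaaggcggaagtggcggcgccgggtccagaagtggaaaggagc
Trappc2l: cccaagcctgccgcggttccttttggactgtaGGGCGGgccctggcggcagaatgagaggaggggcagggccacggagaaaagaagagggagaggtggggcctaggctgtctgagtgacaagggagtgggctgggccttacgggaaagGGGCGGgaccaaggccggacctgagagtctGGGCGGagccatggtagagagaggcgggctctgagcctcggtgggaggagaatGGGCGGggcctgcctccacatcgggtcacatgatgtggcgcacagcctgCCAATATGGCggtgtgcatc
Vps8: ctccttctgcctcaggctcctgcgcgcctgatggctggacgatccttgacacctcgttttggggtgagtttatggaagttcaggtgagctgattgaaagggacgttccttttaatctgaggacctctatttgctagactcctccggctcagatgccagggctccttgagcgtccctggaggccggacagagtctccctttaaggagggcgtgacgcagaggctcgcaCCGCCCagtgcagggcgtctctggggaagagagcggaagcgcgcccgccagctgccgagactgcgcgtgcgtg

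The Rab4b window had a GC content of 64.3%, held 3 CCAAT and 3 GGGCGG matches, and lay in the peaks over 118 bases in replicate 1 and 282 in replicate 2. All 6 matches lay in the replicate 2 peak, and of these 1 CCAAT and 1 GGGCGG also lay in the replicate 1 peak. The Trappc2l window held 4 GGGCGG matches, and its CCAAT and AATATGGC overlapped each other at 30 to 39 bases past the start, with 107 and 197 bases in peaks. Of its GGGCGG matches 1 lay in both peaks and 2 in the replicate 2 peak only, while the CCAAT lay 174 and 84 bp from the peaks. The Vps8 window held 1 GGGCGG match and lay in the replicate 2 peak over 175 bases, while 0 of its bases were in the replicate 1 peak, which began farther downstream.

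Promoter peaks were found at 39 of the 137 members in replicate 1 (28.5%), against 15.7% of all coding genes. In replicate 2 they were found at 72 members (52.6%), against 30.4% of all coding genes. Both replicates had a peak at 34 members (24.8%), against 12.0%, and 60 members had none (43.8%), against 66.0%. The mean share over replicates was 40.5% ± 17.0 (SD, n = 2) for members and 23.0% ± 10.4 (SD, n = 2) for all coding genes. The members' share was the higher one in both lists, and it differed more between the replicates than from that of all coding genes within either list. Of members bound in replicate 1, 87.2% were also bound in replicate 2 (76.7% of all coding genes), and of those bound in replicate 2, 47.2% were also bound in replicate 1 (39.7%).

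**Figure D1:**
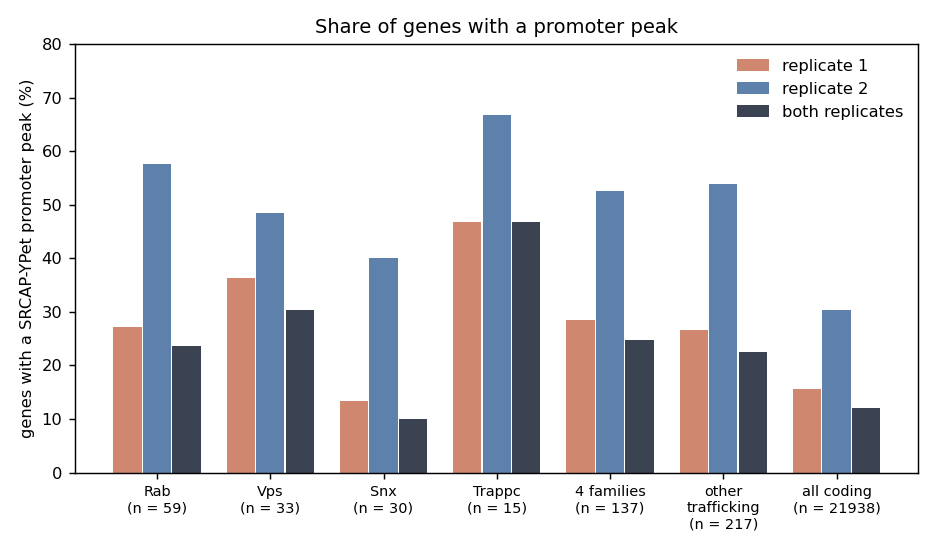
Share of genes with a SRCAP-YPet promoter peak (%, y axis) in replicate 1, replicate 2 and both, for each family, the 4 families together, 217 other trafficking genes and all coding genes. Trappc genes had the highest shares and Snx genes the lowest of the 4 families. The Snx shares were near those of all coding genes in replicate 1 (13.3% against 15.7%) and in both (10.0% against 12.0%), and were 40.0% against 30.4% in replicate 2.

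The families were not alike. Trappc genes had a peak in 7 of 15 in replicate 1 (46.7%) and 10 in replicate 2 (66.7%), and all 7 of the former were also bound in replicate 2. Vps genes followed with 12 of 33 in replicate 1 (36.4%) and 16 in replicate 2 (48.5%), of which 10 were common to both (30.3%). Rab genes had 16 of 59 (27.1%), 34 (57.6%) and 14 in both (23.7%). Among Snx genes only 4 of 30 had a peak in replicate 1 (13.3%), with 12 in replicate 2 (40.0%) and 3 shared by both lists (10.0%). The order of Trappc, Vps, Rab and Snx held in replicate 1 and in the count for both, and Rab and Vps changed places in replicate 2. It was not kept in other subsets: Rab and Vps stood at 23.6% and 20.7% in both without chromosome 8 and at 32.4% and 32.0% among genes with a CpG-rich main promoter, and at a score of at least 50 the counts were 8 Rab, 1 Vps, 0 Snx and 1 Trappc genes. These shares rest on few genes, and the differences between families were not tested.

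**Figure D2:**
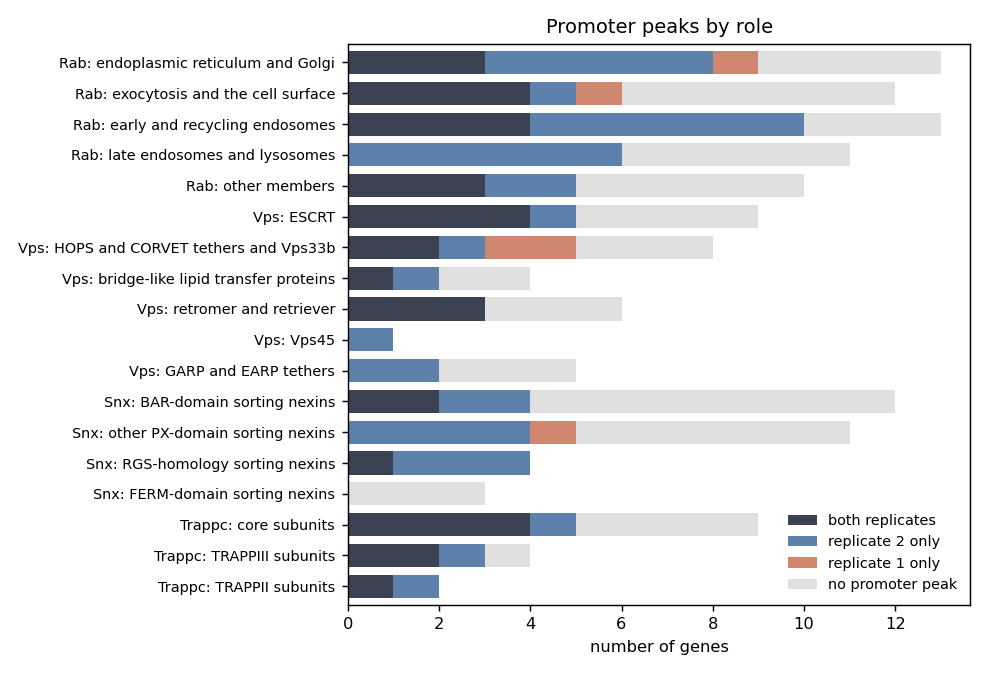
Number of genes (x axis) with a promoter peak in both replicates, in replicate 2 only, in replicate 1 only or in neither, for each role within the 4 families. ESCRT and the TRAPP core each had 4 of 9 genes bound in both (44.4%, all coding genes 12.0%). Of these ESCRT genes, Vps4a, Vps36 and Vps37a lie on chromosome 8, where 22.1% of all coding genes were bound in both.

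Among the Rab genes of the endoplasmic reticulum and Golgi, 3 of 13 were bound in both replicates (23.1%, all coding genes 12.0%). Rab1a, which acts in transport from the endoplasmic reticulum to the Golgi, scored 65 in replicate 1 and 154 in replicate 2. Rab6a, of retrograde transport within and to the Golgi, scored 45 and 42, and Rab33b, which acts at the Golgi and in autophagy, 51 and 44. All 3 were within the top 39.2% of each list by score. Rab33a had a peak in replicate 1 only (score 29), and Rab18 (22), Rab30 (119), Rab34 (33), Rab36 (55) and Rab43 (38) in replicate 2 only. Rab1b, Rab2a, Rab2b and Rab6b had no peak, so the close pairs Rab1a and Rab1b, and Rab6a and Rab6b, were split.

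Early and recycling endosomes had the most Rab genes bound in replicate 2, 10 of 13 (76.9%, all coding genes 30.4%), and 4 were bound in both (30.8% against 12.0%). Rab4b, a Rab of fast recycling, scored 105 and 143, Rab11b, of slow recycling, 87 and 66, Rab22a, of early endosomes, 106 and 82, and Rab5b, of endosome fusion, 40 and 78. All 4 were also in the stronger part of list 2, each within its top 16.3%. Their paralogs Rab4a (21), Rab5a (57), Rab5c (19) and Rab11a (29) had a peak in replicate 2 only, as had Rab14 (77) and Rab21 (33). Rab25, Rab31 and Rab35 had none.

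For exocytosis and the cell surface, 4 of 12 Rab genes were bound in both (33.3%, all coding genes 12.0%). Rab8a, of transport to the plasma membrane and the cilium, scored 60 and 163, the highest score of any member in replicate 2. Rab10, which acts in delivery of vesicles to the surface, scored 25 and 156, Rab3d, of regulated secretion, 32 and 63, and Rab26, of secretory granules, 87 and 54. Rab8a and Rab10 were thus both among the top 1.45% of peaks in list 2. Rab3c was bound in replicate 1 only (34) and Rab37 in replicate 2 only (31), and Rab3a, Rab3b, Rab8b, Rab13, Rab15 and Rab17 had no peak.

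None of the 11 Rab genes of late endosomes, lysosomes and lysosome-related organelles had a peak in replicate 1, where 15.7% of all coding genes did, a small difference in count over 11 genes. In replicate 2 peaks were called at 54.5% of them, against 30.4% of all coding genes, namely at Rab9 (44), Rab27a (44), Rab27b (22), Rab29 (36), Rab32 (38) and Rab38 (23), whose products serve late endosomes, melanosomes and other lysosome-related organelles. These scores all stayed below 50. Rab7, the main Rab of late endosomes, had none, nor had Rab7b, Rab9b, Rab20 and Rab24. Of the 10 remaining Rab genes, Rab39 (66 and 53), Rab40b (37 and 40) and Rab40c (91 and 130) were bound in both. The Rab40 proteins carry a SOCS box that recruits a ubiquitin ligase. Rab23, a negative regulator of Hedgehog signalling (27), and Rab28 (46) were bound in replicate 2 only, and Rab12, Rab19, Rab39b, Rab42 and Rab44 in neither.

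ESCRT cuts vesicles off into the lumen of endosomes, and 4 of its 9 Vps genes were bound in both replicates (44.4%, all coding genes 12.0%). The AAA ATPases that take ESCRT-III apart were both among them, Vps4a with scores of 65 and 40 and Vps4b with 39 and 34. Vps36 of ESCRT-II scored 32 and 75, and Vps37a of ESCRT-I 58 and 40. Vps4a, Vps36 and Vps37a lie on chromosome 8, where 22.1% of all coding genes were bound in both, and Vps4b does not. The subunits were split by paralog, since Vps37c was bound in replicate 2 only (83) and Vps37b and Vps37d had no peak. Vps25 and Vps28 had none either.

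The retromer and the related retriever return cargo from endosomes, and 3 of 6 genes were bound, each in both replicates (50.0%, all coding genes 12.0%). Vps35, the scaffold of retromer, had the highest score of all members in replicate 1 and scored 116 and 151. Vps26b scored 21 and 56 and Vps26c, of retriever, 32 and 59. Vps26a, Vps29 and Vps35l had no peak, so within each complex bound and unbound subunits stood side by side.

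HOPS and CORVET tether late and early endosomes, and the set of their Vps genes with Vps33b was the only Vps group with more genes bound in replicate 1 (4 of 8) than in replicate 2 (3). Both lists had a peak at 2 of them (25.0%, all coding genes 12.0%). Vps8, particular to CORVET, scored 35 and 56, and Vps33a, the SM protein shared by both tethers, 13 and 34. The score of 13 is the lowest that the list holds. Vps11 (23) and Vps16 (19), core subunits, were bound in replicate 1 only, and Vps39 (43), of HOPS, in replicate 2 only. Vps18, Vps33b and Vps41 had no peak.

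No subunit gene of the GARP and EARP tethers was bound in both replicates, as held for most coding genes, while Vps50 (38) and Vps53 (17) were bound in replicate 2 only and Vps51, Vps52 and Vps54 in neither. Of the Vps13 proteins, which bridge membranes and transfer lipids, Vps13b was bound in both (16 and 56), Vps13c in replicate 2 only (34), and Vps13a and Vps13d in neither. Vps45, an SM protein of endosomal fusion, was bound in replicate 2 only (39).

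Sorting nexins with a BAR domain, which bends membrane, had peaks in both replicates at 2 of 12 genes (16.7%), near the 12.0% of all coding genes. These were Snx1 (27 and 50) and Snx2 (41 and 43), which form the tubule-forming coat with Snx5 and Snx6. Snx5 and Snx6 had no peak, nor had Snx7, Snx8, Snx9, Snx18, Snx30 and Snx32, and Snx4 (49) and Snx33 (28) had one in replicate 2 only. All 4 genes grouped here as RGS-homology sorting nexins were bound in replicate 2, where 30.4% of all coding genes were. The grouping was not checked against the domains of each protein. Scores were 36 for Snx13, 59 for Snx14, 20 for Snx19 and 27 for Snx25, and Snx13 was also bound in replicate 1 (57). None of the 3 sorting nexins with a FERM domain, Snx17, Snx27 and Snx31, had a peak in either list, as was so for 66.0% of all coding genes.

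The 11 other PX-domain genes were bound in 1 replicate or in none. Their shares were 9.09% in replicate 1 and 36.4% in replicate 2, against 15.7% and 30.4% of all coding genes. In both it was 0%, against 12.0%, a small difference in count over 11 genes. Snx11 had the strongest peak of the 5 members bound in replicate 1 only, with a score of 97, while the nearest replicate 2 peak lay 16907 bp away. Snx15 (103), Snx21 (72), Snx12 (50) and Snx3 (46) were bound in replicate 2 only, and Snx10, Snx16, Snx20, Snx22, Snx24 and Snx29 had no peak.

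Of the TRAPP core, 4 of 9 genes were bound in both replicates (44.4%, all coding genes 12.0%), with scores between 28 and 59. Trappc4 scored 48 and 52, Trappc2l 53 and 50, Trappc6b 32 and 59, and Trappc2 28 and 34. Trappc6a was bound in replicate 2 only (57), and Trappc1, Trappc3, Trappc3l and Trappc5 had no peak. TRAPPIII acts in early secretion and autophagy, and its Trappc11 (57 and 47) and Trappc8 (24 and 40) were bound in both, Trappc13 (85) in replicate 2 only and Trappc12 in neither. Of the TRAPPII genes, Trappc9 was bound in both (60 and 48) and Trappc10 in replicate 2 only (48).

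**Figure D3:**
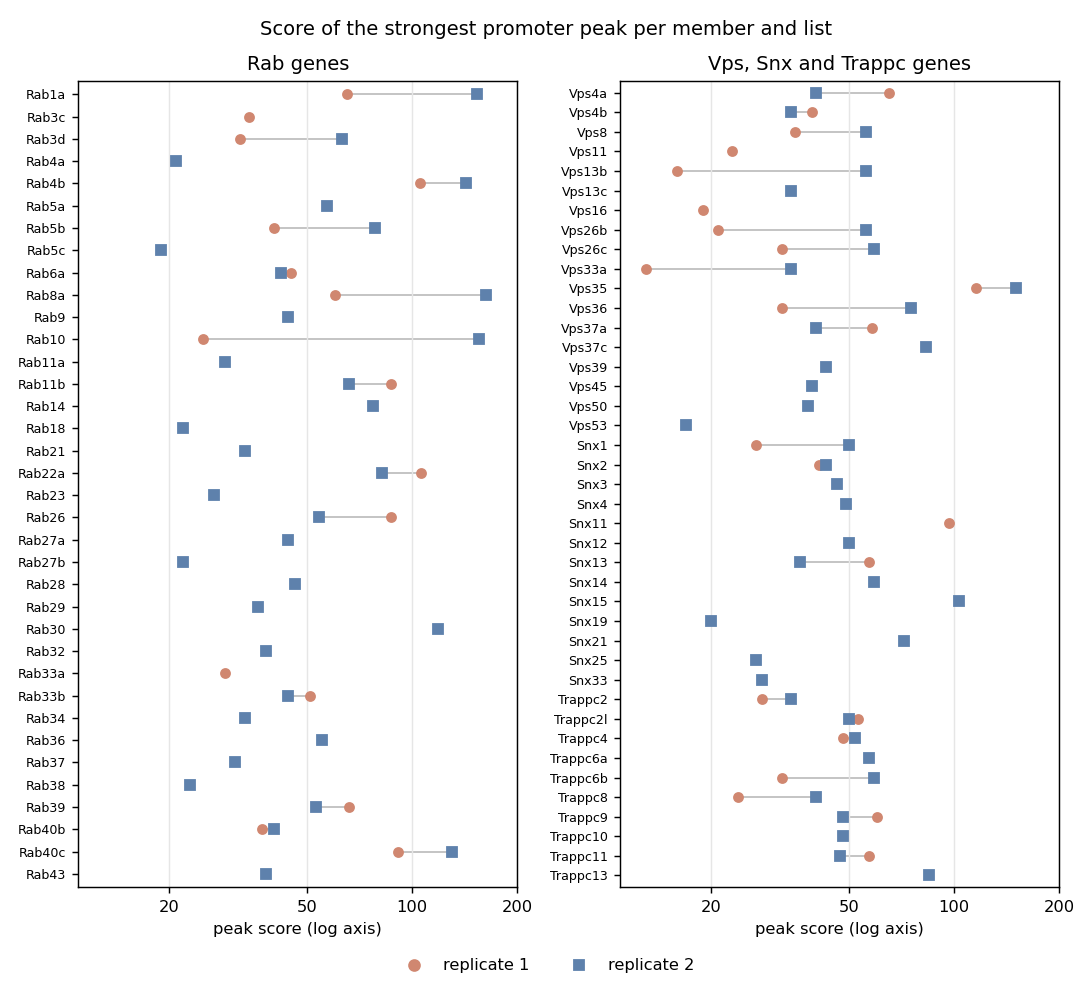
Score of the strongest promoter peak (x axis, log scale) of each of the 77 members with a peak, in replicate 1 (circles) and replicate 2 (squares), with a line joining the values of members bound in both. Vps35 and Rab8a reached the highest member scores, 116 in replicate 1 and 163 in replicate 2.

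Scores of member peaks ranged from 13 to 116 in replicate 1, with a median of 41, against 36 for all coding genes with a peak. In replicate 2 they ranged from 17 to 163, with a median of 46.5 against 44. A score of at least 50 was reached by 17 of 39 member peaks in replicate 1 (43.6%, all coding genes 26.8%) and by 32 of 72 in replicate 2 (44.4% against 43.0%). Against other genes with a promoter peak, the members thus had more high scores in replicate 1 and about as many in replicate 2. Members bound in both had median scores of 46.5 and 53.5, against 29 for the 5 bound in replicate 1 only and 38.5 for the 38 bound in replicate 2 only. Among the latter, Rab30 (119) and Snx15 (103) show that a strong call in the longer list could be without a partner. A peak of the other list within 5000 bp was found for 1 of those 38 members, Rab27a, and for 0 of the 5.

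The strongest peaks of the 2 lists overlapped each other in 34 of 34 members bound in both, as they did in 93.1% of the 2643 coding genes bound in both. Their midpoints lay a median of 98.8 bp apart, from 7.50 bp to 585 bp. The peak was wider in replicate 2 for 23 of the 34 (67.6%), against 71.1% of coding genes bound in both.

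**Figure D4:**
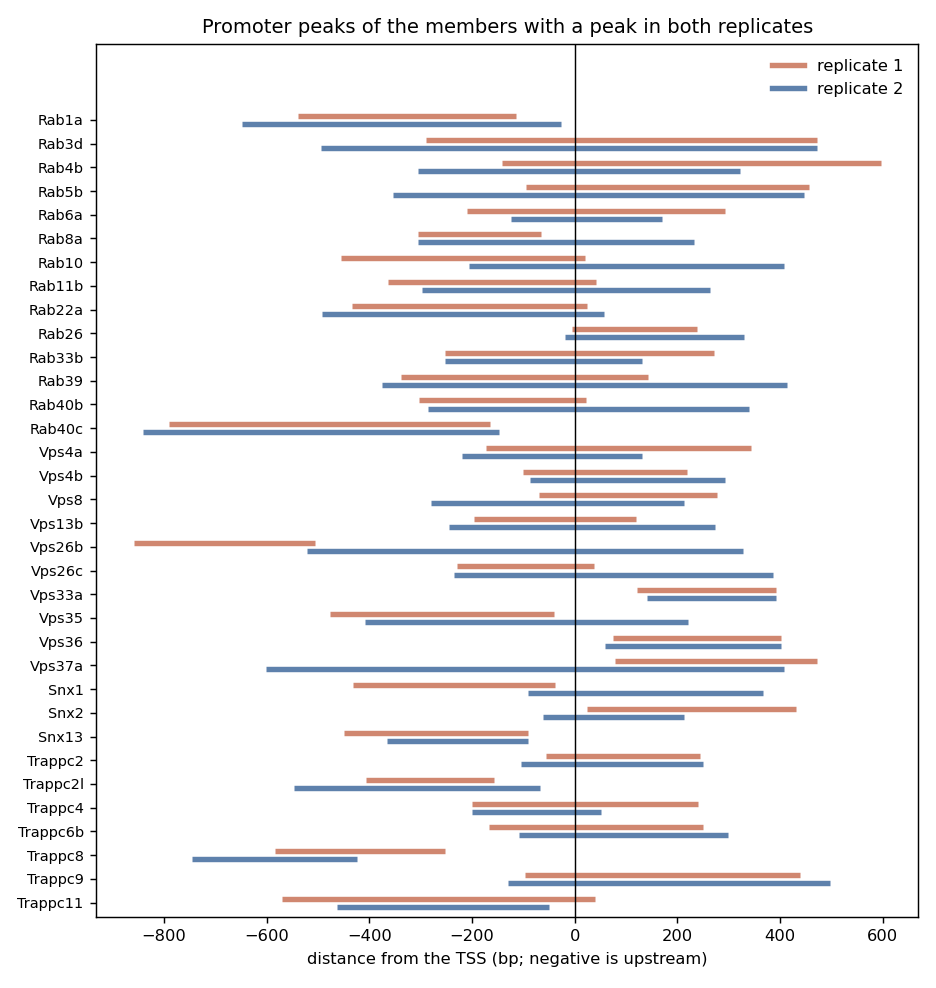
Extent of the strongest promoter peak in replicate 1 (upper bar) and replicate 2 (lower bar) around 1 TSS per gene (the one nearest the replicate 2 peak), for the 34 members bound in both; the x axis is the distance from the TSS in bp along the direction of transcription. Most bars cross or touch the region of the TSS, and those of Rab1a, Rab40c, Snx13, Trappc2l and Trappc8 lie upstream of it in both lists.

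The 10 members with the best worse rank by score over the lists are given with the coordinates of their peaks (GRCm38, mm10), and a midpoint with a negative distance is upstream of the nearest TSS of the gene. The Vps35 peak was at chr8:85299509-85299945 in replicate 1 and chr8:85299248-85299878 in replicate 2, with widths of 437 and 631 bp and midpoints at 75 and -94 bp. It covered a noncoding part of an exon and the promoter window of the neighbour Orc6, whose TSS was the nearest coding one in both lists. A peak there cannot be given to 1 of the 2 genes.

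The Rab4b peaks were at chr7:27178213-27178951 and chr7:27178488-27179115, 739 and 628 bp wide, with midpoints at 228 bp in an intron and 8 bp in an exon. The Rab40c peaks, at chr17:25919891-25920517 and chr17:25919874-25920568, lay upstream of the gene, at -477 and -494 bp. Those of Rab22a lay upstream as well, at chr2:173659326-173659785 and chr2:173659267-173659818 with midpoints at -204 and -217 bp. Both pairs kept their place from one list to the other.

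Rab1a had its peaks at chr11:20200894-20201318 and chr11:20200784-20201405, with midpoints at -326 and -337 bp. The Rab8a peaks, chr8:72161007-72161248 and chr8:72161007-72161545, shared a left border, and the second was 539 bp wide against 242 bp. Midpoints were at -72 and -37 bp. Rab11b had peaks at chr17:33760264-33760669 and chr17:33760042-33760603, 17 and -17 bp from a TSS. None of these 3 overlapped the window of another coding gene.

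Rab26 had peaks at chr17:24533474-24533717 and chr17:24533382-24533730, with midpoints at 116 and 156 bp, the second in a coding exon. Those of Rab39 were at chr9:53706089-53706570 and chr9:53705819-53706607, with midpoints at -98 and 19 bp. Trappc4 completed the 10 with chr9:44407121-44407561 and chr9:44407311-44407561, at 0 and -74 bp, in the window of the ribosomal protein gene Rps25 as well. Of the 10, 8 were Rab genes.

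For the other families, the next members by rank were Trappc2l, Vps8, Snx2 and Snx13. The Trappc2l peaks were at chr8:122611234-122611482 and chr8:122611093-122611572, upstream at -282 and -307 bp, nearest to the TSS of Galns. The Vps8 peaks were at chr16:21423203-21423550 and chr16:21422993-21423486, 105 and -32 bp from a TSS and 348 and 494 bp wide. Snx13 had peaks upstream at chr12:35046737-35047095 and chr12:35046820-35047095, at -270 and -228 bp.

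The Snx2 peaks were at chr18:53176413-53176820 and chr18:53176327-53176603, with midpoints at 228 bp in an intron and 76 bp in a coding exon. Peak midpoints of members were within 200 bp of a TSS in 56.4% in replicate 1 (all coding genes 64.7%) and 76.4% in replicate 2 (65.2%). They were about evenly placed on both sides, with 48.7% and 48.6% downstream (all coding genes 47.1% and 47.5%). A TSS of the gene lay inside the peak for 26 of 39 and 55 of 72 members, against 2121 of 3445 and 4447 of 6660 coding genes.

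Some of these promoters are shared with a neighbour. A member's strongest peak also overlapped the window of another coding gene in 9 of 39 (23.1%, all coding genes 23.9%) in replicate 1 and in 13 of 72 (18.1% against 22.1%) in replicate 2. The families differed in this, with 4 of 7 and 6 of 10 Trappc peaks shared but 1 of 16 and 1 of 34 Rab peaks, that of Rab6a with Mrpl48. The Trappc partners were Rps25 (Trappc4), Galns (Trappc2l), Ofd1 (Trappc2), Rwdd4a (Trappc11), Bloc1s3 (Trappc6a) and Trim23 (Trappc13). Among Vps genes they were Orc6 (Vps35), Cnot7 (Vps37a), Ncapd3 (Vps26b), Pced1a (Vps16), Hepacam2 (Vps50) and Fam57a (Vps53), and for Snx25 the partner was Cfap97. At members whose windows were not shared, 22.3% of 112 were bound in both replicates, against 10.3% of such coding genes. With a shared window the shares were 36.0% of 25 members and 21.3% of 3513 coding genes. The family shares were not compared within these classes.

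The promoters of the members also differ from those of the genome in kind, which the choice by symbol did not use. A main promoter, taken as the 300 bases around the most upstream TSS, was counted as CpG-rich at a GC content of at least 50% and an observed over expected CpG ratio of at least 0.6. This held for 69.3% of members and 41.3% of all coding genes. Among genes with such a promoter, 28.4% of 95 members and 20.4% of 9058 coding genes were bound in both replicates, 31.6% against 25.8% in replicate 1 and 54.7% against 48.3% in replicate 2. Without one, 16.7% of 42 members and 6.16% of 12880 coding genes were bound in both. The ratio of the members' share to that of all coding genes, averaged over the replicates, was 1.77 over all genes and 1.18 among CpG-rich promoters, so the members' lead was smaller among genes of this promoter class. The part of promoter class in the family shares was not tested.

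CpG richness did not separate bound from unbound members clearly, since 79.4% of the 34 bound in both and 66.7% of the 60 unbound members were CpG-rich. The median number of TSSs was 5 for members and 3 for all coding genes, and the median length covered by the windows was 3132 and 3002 bp. Members with 1 or 2 TSSs were bound in both in 23.3% of 30, against 5.70%, and those with 3 to 5 in 30.4% of 56, against 13.8%. With 6 or more TSSs the shares were alike, 19.6% of 51 members and 19.4% of 5967 coding genes. On chromosome 8, where 22.1% of coding genes were bound in both, 7 of 13 members were (53.8%), and without it the share was 21.8% of 124 members against 11.5%.

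**Figure D5:**
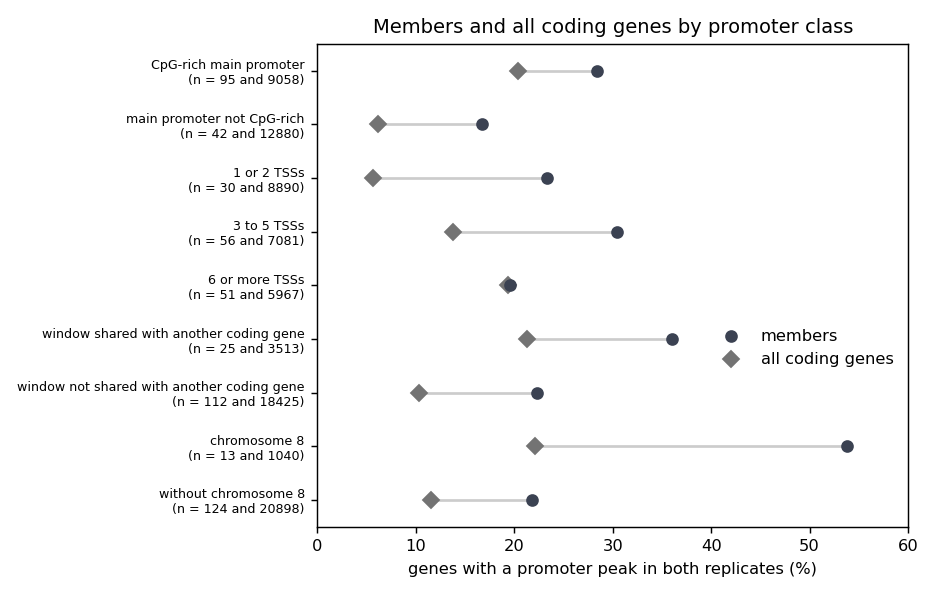
Share of genes with a promoter peak in both replicates (%, x axis) among members (circles) and all coding genes (diamonds) by promoter class, number of TSSs, shared window and chromosome; n gives members and all coding genes. The circles lie to the right of the diamonds, and at 6 or more TSSs the shares were close, 19.6% and 19.4%.

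Motifs were counted in the main promoters of all genes, on both strands. CCAAT was in 37.2% of member promoters and 39.0% of all, and among genes bound in both in 44.1% of members and 45.5% of all coding genes. GGGCGG was in 63.5% of members and 43.0% of all coding genes, but in 64.7% of members and 65.6% of coding genes bound in both. The YY1 letters AANATGGC were in 6.57% of members and 6.16% of all, and in 4 of the 34 members bound in both (11.8%, all coding genes bound in both 8.21%). The NRF1 letters GCATGCGC were in 4.38% and 3.71%, and among genes bound in both in 5.88% and 5.18%. The letters CCGGAAG of ETS factors were in 18.2% of members against 10.8%, though in 3 of the 34 members bound in both (8.82%, all coding genes bound in both 16.6%). TCTCGCGA was in 1.46% of members and 1.38% of all, namely in Rab33b and Vps4b, both bound in the 2 replicates, against 3.25% of all coding genes bound in both.

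The letters with the highest ratio of the members' share to that of all coding genes, of the 7 searched, were TCACGTGA, the core of the CLEAR element read by TFEB, the transcription factor of lysosomal genes. They were in 9 members (6.57%) and in 1.10% of all coding genes, or 1.70% of those bound in both. The 9 members were Rab5a, Rab21, Rab24, Vps11, Vps16, Vps26a, Vps33a, Snx2 and Trappc6a, which include 3 core subunits of HOPS and CORVET. A SRCAP-YPet peak was called in at least 1 replicate at 7 of the 9, against 56.2% of all members and 34.0% of all coding genes. Both replicates had one at 2 of the 9, Vps33a and Snx2, a share near that of all members. TCACGTGA reads the same on both strands. It was singled out after these counts had been seen, and a match of letters does not show that TFEB binds there.

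Promoters with these letters in capitals are shown for the members with a peak and a matching RefSeq entry, so that the place of the letters can be read against the start. They are chr17:53478984-53479283 on the plus strand for Rab5a, chr10:115315542-115315841 on the minus strand for Rab21, chr2:130424070-130424369 on the plus strand for Vps16 and chr5:123572966-123573265 on the minus strand for Vps33a (GRCm38.p6).
Rab5a: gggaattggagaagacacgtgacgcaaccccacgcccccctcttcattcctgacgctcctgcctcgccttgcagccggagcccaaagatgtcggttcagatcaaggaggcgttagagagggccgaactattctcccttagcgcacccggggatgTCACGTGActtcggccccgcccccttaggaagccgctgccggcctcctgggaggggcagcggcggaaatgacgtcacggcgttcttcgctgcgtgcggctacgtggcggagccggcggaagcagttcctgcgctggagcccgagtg
Rab21: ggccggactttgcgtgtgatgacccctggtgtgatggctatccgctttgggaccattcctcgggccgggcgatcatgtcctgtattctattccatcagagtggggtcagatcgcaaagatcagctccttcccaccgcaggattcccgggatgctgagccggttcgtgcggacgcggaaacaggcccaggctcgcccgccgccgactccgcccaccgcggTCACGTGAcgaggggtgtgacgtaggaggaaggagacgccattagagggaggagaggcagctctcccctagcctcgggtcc
Vps16: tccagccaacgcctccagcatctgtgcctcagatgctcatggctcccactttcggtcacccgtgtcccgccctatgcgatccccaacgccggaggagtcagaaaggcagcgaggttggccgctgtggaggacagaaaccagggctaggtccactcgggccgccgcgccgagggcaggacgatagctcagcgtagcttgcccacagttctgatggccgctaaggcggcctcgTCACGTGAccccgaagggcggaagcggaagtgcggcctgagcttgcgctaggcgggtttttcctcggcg
Vps33a: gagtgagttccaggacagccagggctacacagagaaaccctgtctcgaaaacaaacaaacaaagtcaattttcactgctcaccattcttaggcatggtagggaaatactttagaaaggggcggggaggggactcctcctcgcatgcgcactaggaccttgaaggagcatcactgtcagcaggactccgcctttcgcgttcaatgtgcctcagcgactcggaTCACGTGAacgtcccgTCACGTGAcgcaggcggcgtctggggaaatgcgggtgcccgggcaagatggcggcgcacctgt

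The letters began at -96 in Rab5a, at -31 in Rab21, at -19 in Vps16 and at -29 and -13 in Vps33a, counted in bases from the RefSeq start. The Rab5a window lay in the replicate 2 peak over 153 bases and that of Rab21 over 163, and the Vps16 window lay in the replicate 1 peak over 223 bases. In Vps33a 0 bases of the window were in a peak, since both its peaks had their midpoints in an intron, at 257 and 267 bp. The letters themselves were in no peak: they lay 2 bp from the replicate 2 peak in Rab5a, 57 bp from it in Rab21 and 9 bp from the replicate 1 peak in Vps16. In Vps33a the match nearer to the peaks was 164 and 183 bp away.

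Other genes of membrane traffic were counted from a list of 217 that share no symbol with the 4 families. They were bound in 26.7% in replicate 1 and 53.9% in replicate 2, and 22.6% were bound in both, close to the members' shares and above the 12.0% of all coding genes in both. Of 8 genes for the prenylation, recycling and delivery of Rab proteins, 7 were bound in replicate 2 (87.5%, all coding genes 30.4%). Both replicates had a peak at 3 of them (37.5%), Chml, Rabac1 and Rabif. Of 32 Rab GTPase-activating proteins 9 were bound in both (28.1%), namely Rabgap1, Tbc1d4, Tbc1d5, Tbc1d9, Tbc1d14, Tbc1d19, Tbc1d22b, Tbc1d23 and Tbc1d32. Of 28 Rab exchange factors 7 were (25.0%), Dennd1a, Dennd2c, Dennd3, Dennd6b, Madd, Mon1b and Ric1. Dennd3 scored 123 in replicate 1 and 103 in replicate 2, and its score in replicate 1 was above that of every member.

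Of 35 partners of the Vps complexes 7 were bound in both, Chmp2b, Commd1, Ist1, Stam, Uvrag, Vipas39 and Washc3. Ist1, which joins Vps4 in ESCRT-III disassembly, scored 87 and 118. Of 22 COPI and COPII genes 5 were bound in both (22.7%), Copb1, Copb2, Copg2, Sec23a and Sec24c. Among 34 adaptor and clathrin genes there were 6 (17.6%), Ap1m1, Ap1s1, Ap1s3, Ap2a1, Ap3m1 and Ap3m2. Among 41 genes of SNAREs and associated proteins there were 9 (22.0%), Napa, Napb, Sec22a, Snap29, Stx5a, Stx16, Use1, Vamp1 and Vti1b. Ap2a1, a large subunit of the endocytic adaptor, had scores of 160 and 172, above those of every member. Of the tether genes, 2 of 9 of the exocyst (Exoc2 and Exoc4, 22.2%) and 1 of 8 of COG (Cog6, 12.5%) were bound in both, the latter at the level of all coding genes (12.0%).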

How the data were processed

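SRCAP-YPet CUT&Tag was measured in 2 replicates of SYAT cells. The authors deposited 1 list of MACS2 peaks per sample with a score. The labels name STAR, Picard, MACS2 and mm10. The study describes downsampling, a blacklist and a chromosome filter under a heading for both ChIP-seq and CUT&Tag. Whether every step was applied to these lists is not clear, since each list held 6 mitochondrial peaks. A score depends on depth, which is unknown, so scores were compared within lists.

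Members, roles and lists were chosen with earlier results of these data known. Promoter windows came from GENCODE M21 without 13 mitochondrial coding genes. A gene was represented by its highest score. Every member with a peak was to be named with its scores, and the 10 best by their worse rank in both lists, with more so that each family had 2, described by position. Promoter properties came from GRCm38, and 3 promoters next to assembly gaps were not measured. The code was tested on simulated data, and all 500 planted promoter peaks were found. Alternatives covered score, list length, window, transcripts, overlap, repeats, background and leaving out each replicate. Python 3.11.15, numpy 2.4.6, pysam 0.24.0, samtools 1.23.1 and matplotlib 3.10.9 were used. No interval is given for shares of genes, which are complete counts over the annotation.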

Additional observations from a re-analysis of the deposited data

How the results depend on the processing

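The counts moved most with the score and with a replicate left out. With peaks of a score of at least 50 alone, 17 members were bound in replicate 1, 32 in replicate 2 and 10 in both (8 Rab, 1 Vps, 0 Snx and 1 Trappc), and the mean share was 17.9%. Those 10 were Rab1a, Rab4b, Rab8a, Rab11b, Rab22a, Rab26, Rab39, Rab40c, Vps35 and Trappc2l. With a TSS required inside the peak, 6 Vps, 1 Snx and 4 Trappc genes were bound in both. The ratio of the members' share to that of all coding genes, averaged over the replicates, was 1.77, and became 1.18 among genes with a CpG-rich main promoter and 1.24 with a CpG-rich promoter at any TSS, an alternative chosen after seeing the data. It was 1.66 without Olfr and Vmn genes, 1.70 without chromosome 8, 1.84 with coding transcripts, 1.90 with lists of equal length and without shared windows, 1.92 at the most upstream TSS, 1.95 with a TSS in the peak and 2.37 at a score of at least 50 (2.95 in replicate 1 and 1.79 in replicate 2). With 1 replicate left out, the count of bound members ranged from 39 to 72, with 16 to 34 Rab, 12 to 16 Vps, 4 to 12 Snx and 7 to 10 Trappc genes, the mean share from 28.5% to 52.6% and the ratio from 1.73 to 1.81. Of 440 alternative values for 46 results, 367 stayed within bounds and 73 moved. Bounds were a factor of 1.5 for counts and the SD between replicates for the mean share and the ratio. For each of the 34 members bound in both, which made up most of the results, the bound was a peak in both replicates. Only the ratio could be counted as reversed, by falling below 1, and 0 of its values did. Under all 9 alternatives on peaks, windows and overlap, 7 of the 34 members bound in both stayed so, which were Rab4b, Rab8a, Rab11b, Rab22a, Rab26, Rab39 and Vps35. No paired analysis was possible because both samples belong to 1 group. Depth is unknown, so how far it limits the shorter list was not tested.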
